A study of Mus musculus with 9 samples.

Results

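The annexins are a family of calcium-dependent proteins of the inner face of cell membranes, and 8 of their genes were followed here in the laser-injured mouse retina: Anxa1, Anxa2, Anxa3, Anxa4, Anxa5, Anxa6, Anxa7 and Anxa11. They were picked by gene symbol from the 48587 gene names in the count table, with earlier results of these data known, and 4 other annexin genes of the list, which were rare, are given at the end. RNAseq had been done on 9 samples, each made by combining 6 retinas of C57BL/6J mice at 12 weeks of age. In 3 samples all veins of the eye had been laser-treated (RVO eyes), in 3 the laser had been directed between the large vessels (control eyes), and 3 came from mice that were not laser-treated (untreated eyes). Each laser-treated mouse gave an RVO eye and, on the other side, a control eye, so RVO and control pools may hold eyes of the same mice, in a matching that was not stated. These eyes were taken at d2 and shared an intraperitoneal dose of 200 mg/kg eosin Y, a dye that enhances the laser effect, and laser pulses of 50 mW over 2.5 s with a spot size of 50 µm. Whether untreated mice received eosin Y was not stated. The model combines occlusion with a local burn, and each sample averages 6 mice, so n counts pools.

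Annexins bind phosphatidylserine and other acidic phospholipids when calcium rises, for example at a torn membrane, where several of them assemble and help to close the wound. Some also act outside the cell. Annexin A1 is a ligand of formyl peptide receptors that restrains leukocytes, annexin A2 holds tissue plasminogen activator and plasminogen at the cell surface together with its partner S100A10, and annexin A5 covers the phosphatidylserine that dying cells expose. In the eye, annexins A2 and A5 have been linked to the uptake of photoreceptor outer segments by the pigment epithelium.

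All 8 annexins rose in RVO eyes compared to untreated eyes, from 1.90-fold for Anxa7 to 7.37-fold for Anxa2. In control eyes 7 of the 8 rose, from 1.36-fold for Anxa5 to 2.97-fold for Anxa2, and Anxa7 did not pass the test. Between RVO and control eyes 5 of the 8 were higher in RVO eyes: Anxa2, Anxa3, Anxa4, Anxa5 and Anxa7, from 1.54-fold for Anxa7 to 2.47-fold for Anxa2. None of the 8 was lower in any of these 3 comparisons. A gene was counted as changed when its Benjamini-Hochberg adjusted p in edgeR's quasi-likelihood test was under 0.01. These counts stood against a background in which 27.4% of the 16380 tested genes rose in RVO eyes compared to untreated eyes, 27.2% of 16066 rose in control eyes compared to untreated eyes, and 2.70% of 16874 were higher in RVO than in control eyes. Lower levels were called for 24.6%, 25.2% and 0.634% of genes. On the log2 scale, the 8 annexins had a median fold change of 1.46, 0.84 and 0.67 in these comparisons, whereas the median of all tested genes was 0.01, 0.01 and 0.02.

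**Figure D1:**
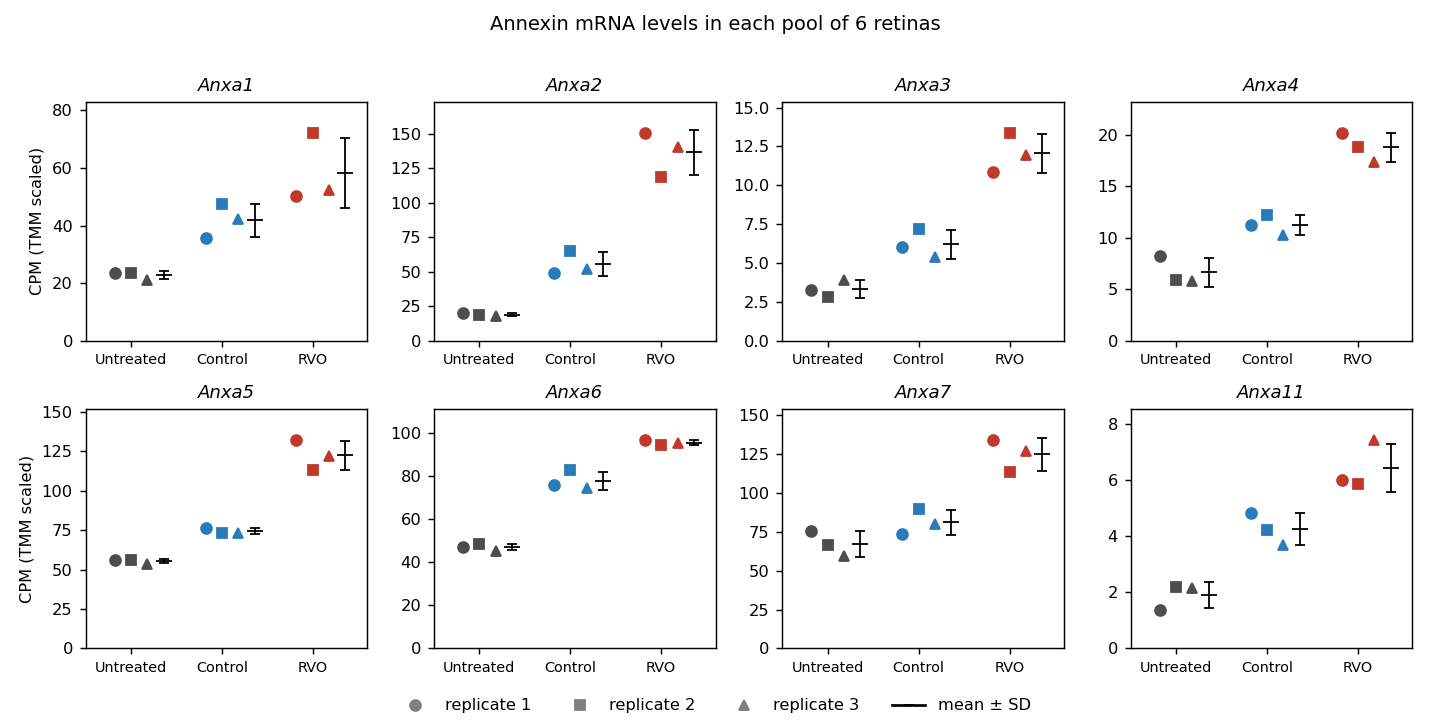
Level of each annexin in CPM (counts of the gene per 1000000 counts of the sample, scaled by the TMM method) in the 3 samples of untreated, control and RVO eyes, with the mean and SD of each group beside the points. Every RVO sample lies above every control sample in all 8 plots, and every control sample lies above every untreated sample in all plots but that of Anxa7.

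Total counts were 21022997 to 28993921 in RVO eyes, 18897218 to 23419497 in control eyes and 12377572 to 15245869 in untreated eyes. The RNA was that of retina, since the summed level of 5 rod markers was at least 41012 CPM in every sample. Cell type markers moved in the same comparisons. The summed level of 6 monocyte and macrophage markers was 5.70 to 5.93 CPM in untreated, 29.5 to 41.5 CPM in control and 70.8 to 87.2 CPM in RVO eyes. That of 6 neutrophil markers was 0.469 to 1.18 CPM in untreated eyes, with Cxcr2, Ly6g and Retnlg at 0, and it was 8.12 to 24.2 CPM in control and 45.4 to 102 CPM in RVO eyes. The summed levels of 5 erythroid markers (14.4 to 14.999, 28.6 to 31.2 and 49.6 to 196 CPM) and of 5 fibroblast markers (23.6 to 29.4, 26.6 to 33.3 and 45.1 to 55.3 CPM) were also highest in RVO eyes. Not all members of these lists rose. The fibroblast marker Pdgfra averaged 17.0, 12.7 and 13.8 CPM in untreated, control and RVO eyes. Hba-a1, Hba-a2 and Alas2 overlapped between control and untreated eyes, where the other erythroid markers, Hbb-bs and Hbb-bt, rose. Summed markers of rods and of microglia were instead highest in untreated and lowest in RVO eyes. The 5 rod markers summed to 79492 to 81415, 51095 to 62622 and 41012 to 45008 CPM in untreated, control and RVO eyes. The 5 microglia markers summed to 41.8 to 70.6, 19.3 to 22.02 and 5.51 to 14.5 CPM. Of these, Nrl of rods and Cx3cr1 and Sall1 of microglia overlapped between control and untreated eyes (edgeR, adjusted p = 0.179, 0.219 and 0.331). The sum of 5 Mueller cell markers was 3521 to 3771, 1880 to 2503 and 1186 to 1632 CPM, most of it from Glul, whereas Kcnj10 rose in control eyes (log2 fold change 0.49, edgeR, adjusted p = 0.00109) and Rlbp1 overlapped between RVO and control eyes. RVO replicate 2 stood apart from the other RVO samples, with 205 CPM of 5 lens markers against 4.78 and 18.2 CPM, and control replicate 1 had 63.9 CPM of them against 5.31 and 12.3 CPM. RVO replicate 1 had the most erythroid markers, 196 CPM against 49.6 and 79.2 CPM, and the lowest summed markers of bipolar, amacrine and retinal ganglion cells. RVO replicate 2 had the most of these last markers. They summed to 486, 547 and 455 CPM in it, 200, 304 and 194 CPM in replicate 1 and 275, 350 and 253 CPM in replicate 3. It also had the most microglia markers (14.5 CPM against 5.51 and 6.82 CPM) and endothelial markers (242 CPM against 132 and 176 CPM). In retinas pooled whole, a larger share of a cell type and more RNA per cell cannot be told apart, and the part of these cell types in the annexin levels was not tested.

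Because the 8 genes moved in the same direction, their promoters were compared. RefSeq (GRCm38.p6) held windows for 6 of the 8 annexins, and the 250 bases before each start were searched on both strands for an AP-1 site (TGANTCA), a STAT site (TTCNNNGAA), an NF-kB site (GGGA and TTCC with a pair of free bases between them), the core of a HIF site (ACGTG) and a TATA box (TATAAA). The stretches of Anxa2, Anxa4 and Anxa5 that lie outside annotated exons are shown because they hold matches to 3 of these sites, in capitals. They lie at chr9:69453433-69453619 (+), chr6:86793585-86793834 (-) and chr3:36475895-36475936 (-) of GRCm38 and run 5′ to 3′.
Anxa2: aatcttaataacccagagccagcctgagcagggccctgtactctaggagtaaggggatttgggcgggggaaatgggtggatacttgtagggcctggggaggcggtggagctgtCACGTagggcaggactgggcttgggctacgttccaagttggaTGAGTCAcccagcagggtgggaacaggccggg
Anxa4: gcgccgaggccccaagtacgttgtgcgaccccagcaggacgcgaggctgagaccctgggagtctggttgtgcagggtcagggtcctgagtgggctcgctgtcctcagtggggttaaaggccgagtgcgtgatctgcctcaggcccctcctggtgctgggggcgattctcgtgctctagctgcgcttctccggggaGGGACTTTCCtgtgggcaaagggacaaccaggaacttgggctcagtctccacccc
Anxa5: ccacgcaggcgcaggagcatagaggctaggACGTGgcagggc
The Anxa2 stretch held the AP-1 letters beginning 95 bases before the start and, on the reverse strand, the HIF core beginning 137 bases before it. In Anxa4 the capitals mark the NF-kB letters, which began 55 bases before the start, and in Anxa5 they mark the HIF core, which began 19 bases before it. In the parts not shown, TATA letters began 32 bases before the Anxa1 start and 17 bases before the Anxa2 start, 1 of the Anxa7 windows held the HIF core in a palindrome, and neither the Anxa11 window nor the second Anxa4 window held any of the letters. Among all 32851 windows of this length, 6.75% held the AP-1 letters, 7.02% the STAT letters, 1.21% the NF-kB letters, 16.6% the HIF core and 12.4% the TATA letters. No motif was thus shared by more than 3 of the 6 annexins, and a match of letters does not show binding.

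Anxa2 (chr9:69453620-69491795, + strand) showed the largest fold change of the 8 annexins in each comparison. Its level was 20.3, 18.5 and 18.0 CPM in the 3 samples of untreated eyes, 48.9, 65.2 and 52.2 CPM in control eyes and 151, 118 and 140.1 CPM in RVO eyes. The groups were far apart, and the lowest RVO sample was well above the highest control sample. The log2 fold change was 2.88 ± 0.11 (SE) in RVO and 1.57 ± 0.11 in control eyes compared to untreated eyes (edgeR, adjusted p = 2.25e-06 and 2.56e-07), and 1.30 ± 0.14 in RVO compared to control eyes (edgeR, adjusted p = 0.006). Of all tested genes, 3.02%, 4.08% and 2.55% had a larger log2 fold change in these comparisons.

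S100a10, which encodes the protein that joins annexin A2 in a tetramer, ran parallel to Anxa2. Its level was 19.3, 18.6 and 16.6 CPM in untreated eyes, 45.4, 71.7 and 58.4 CPM in control eyes and 125, 111 and 139 CPM in RVO eyes. Relative to untreated eyes it rose by 2.81 in RVO and by 1.71 in control eyes on the log2 scale, and it was higher by 1.10 in RVO than in control eyes (edgeR, adjusted p = 2.34e-06, 8.4e-07 and 0.00965). Per kilobase of exon, the level of S100a10 was 2.95 ± 0.13 times that of Anxa2 in untreated eyes, 3.23 ± 0.32 times in control eyes and 2.83 ± 0.26 times in RVO eyes (mean ± SD, n = 3). This ratio overlapped between all groups while both levels rose.

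Of 6 genes for plasmin formation at the cell surface, where annexin A2 and S100A10 act as a platform, 5 could be tested. In RVO eyes compared to untreated eyes 4 of them rose (27.4% of all tested genes did), in control eyes 5 rose (27.2%), and 3 were higher in RVO eyes when these were compared to control eyes (2.70%). Plat encodes tissue plasminogen activator and was at 9.72, 11.02 and 11.6 CPM in untreated, 26.6, 23.0 and 21.8 CPM in control and 79.3, 42.3 and 64.3 CPM in RVO eyes. Its groups did not overlap, with log2 differences of 2.56 between RVO and untreated, 1.16 between control and untreated and 1.39 between RVO and control eyes (edgeR, adjusted p = 5.03e-05, 1.51e-06 and 0.00989). Plgrkt, a plasminogen receptor of the membrane, stayed within 17.0 to 26.6 CPM in all 9 samples. It rose in control eyes by a log2 fold change of 0.33 (edgeR, adjusted p = 0.00788), and it was 0.35 in RVO compared to untreated eyes (edgeR, adjusted p = 0.0506, 95% confidence interval 0.03 to 0.67) and 0.01 in RVO compared to control eyes (edgeR, adjusted p = 0.964, 95% confidence interval -0.30 to 0.32). Plg, the gene of plasminogen itself, was at most 0.33 CPM in any sample and too low to be tested.

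**Figure D2:**
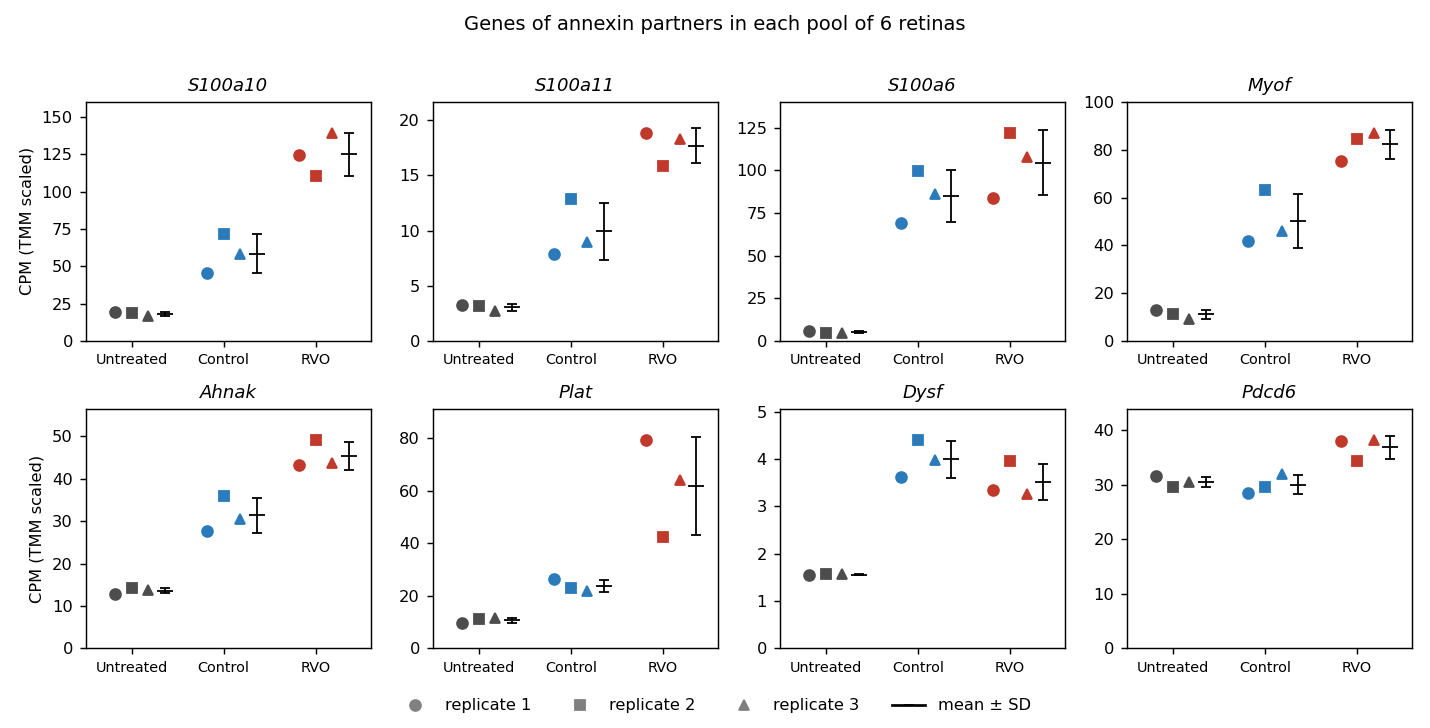
Level in CPM of 8 genes whose products bind or work with annexins, in the samples of untreated, control and RVO eyes, with the mean and SD of each group beside the points. S100a10, S100a11, Myof, Ahnak and Plat step up from untreated to control to RVO eyes without overlap, S100a6 and Dysf are high in both laser-treated groups, and Pdcd6 is between 28.5 and 38.1 CPM throughout.

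Anxa1 (chr19:20373428-20390944, - strand) is induced by glucocorticoids and is abundant in neutrophils and monocytes. It was at 23.7, 23.4 and 21.1 CPM in untreated eyes, 35.8, 47.3 and 42.5 CPM in control eyes and 50.2, 72.2 and 52.4 CPM in RVO eyes. The groups did not overlap, and RVO replicate 2 was the highest of all samples. The log2 fold change was 1.39 ± 0.15 in RVO and 0.90 ± 0.11 in control eyes compared to untreated eyes (edgeR, adjusted p = 0.000107 and 9.95e-06). Compared to control eyes the value in RVO eyes was 0.48 ± 0.16 and missed the threshold (edgeR, adjusted p = 0.0509, 95% confidence interval 0.11 to 0.85). Among the RVO samples, replicate 2 had the fewest neutrophil markers (45.4 CPM against 95.5 and 102 CPM), the most markers of lens, fibroblasts (55.3 CPM against 45.1 and 47.3 CPM) and surface epithelium (20.5 CPM against 5.45 and 12.9 CPM), and 75.04 CPM of monocyte and macrophage markers against 70.8 and 87.2 CPM. The part of these in its Anxa1 level was not tested. Without this sample, RVO and control eyes differed by 0.28 ± 0.11 on the log2 scale (edgeR, adjusted p = 0.0564).

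The receptors of annexin A1 were near the limit of detection. Fpr1 was at 0.09, 0.08 and 0.07 CPM in untreated, 0.36, 0.25 and 0.29 CPM in control and 1.05, 0.59 and 1.41 CPM in RVO eyes. Fpr2 was at 0 in all untreated samples, at 0.14, 0.40 and 0.13 CPM in control eyes and at 1.05, 0.85 and 1.71 CPM in RVO eyes. From 79 counts in all RVO and 3 in all untreated samples, Fpr1 was 12.8-fold higher in RVO eyes (exact 95% Poisson interval 4.23 to 63.5, counting error only). Against a floor of 3 counts in each untreated sample, Fpr2 was at least 5.01-fold higher in RVO eyes, and both rose (edgeR, adjusted p = 0.000943 and 0.00102). Both passed the low-count filter of this comparison only through their RVO samples, so these p-values are no separate support. In control compared to untreated eyes both were too low to be tested. Compared to control eyes they missed the threshold, with a log2 fold change of 1.73 and 2.46 (edgeR, adjusted p = 0.0175 and 0.0133, 95% confidence intervals 0.81 to 2.65 and 1.31 to 3.60). Of the 50-base stretches of the Fpr2 transcripts, 31.5% also occur in transcripts of other genes, so its counts are less certain. S100a11, whose product binds annexin A1, was at 3.27, 3.13 and 2.71 CPM in untreated, 7.91, 12.8 and 8.997 CPM in control and 18.9, 15.9 and 18.3 CPM in RVO eyes. Relative to untreated eyes it rose by 2.58 in RVO and by 1.73 in control eyes on the log2 scale (edgeR, adjusted p = 8.35e-06 and 1.09e-05), and the value of 0.84 between RVO and control eyes missed the threshold (edgeR, adjusted p = 0.0161, 95% confidence interval 0.41 to 1.27). Per kilobase of exon, the level of S100a11 was 0.759 ± 0.027 times that of Anxa1 in untreated, 1.34 ± 0.18 times in control and 1.79 ± 0.47 times in RVO eyes (mean ± SD, n = 3), although 41.1% of its 50-base stretches are shared with pseudogenes and other genes. The arachidonate pathway, whose first step annexin A1 was named for inhibiting, was followed with 6 genes. Compared to untreated eyes, 5 of 6 tested rose in RVO eyes (27.4% of all tested genes did) and 2 of 5 tested in control eyes (27.2%). Between RVO and control eyes 0 of 6 passed the test, where 2.70% of all tested genes were higher. At an adjusted p under 0.05 in edgeR, 4 of 6 were higher, as were 17.5% of all tested genes.

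Anxa5 (chr3:36448923-36475894, - strand) encodes the protein used as a probe of apoptotic cells. Its level was 56.4, 55.9 and 53.7 CPM in untreated, 76.5, 73.5 and 73.1 CPM in control and 132, 113 and 122 CPM in RVO eyes. Replicates lay close together and the groups did not overlap. The log2 fold change was 1.18 ± 0.08 in RVO and 0.45 ± 0.05 in control eyes compared to untreated eyes (edgeR, adjusted p = 1.82e-05 and 1.51e-05), and 0.72 ± 0.08 in RVO compared to control eyes (edgeR, adjusted p = 0.00601). Of 10 genes for exposure of phosphatidylserine and clearance of the cells that show it, 7 rose and 1 fell in RVO eyes compared to untreated eyes (27.4% and 24.6% of all tested genes did), and 6 rose in control eyes (27.2%). Axl, a receptor of this pathway, was the 1 of the 10 that passed the test between RVO and control eyes, where it was higher in RVO eyes (2.70% of all tested genes were). These 10 genes had a median of 0.53, 0.49 and 0.21 on the log2 scale in RVO against untreated, control against untreated and RVO against control eyes.

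Anxa6 (chr11:54979108-55033445, - strand) encodes an annexin with a duplicated core that acts at endosomes and at membrane wounds. It was at 47.2, 48.4 and 45.4 CPM in untreated, 75.6, 82.5 and 74.6 CPM in control and 96.4, 94.1 and 95.3 CPM in RVO eyes. Its RVO samples were the most uniform of any annexin, and no group overlapped another. The log2 fold change was 1.05 ± 0.07 in RVO and 0.74 ± 0.06 in control eyes compared to untreated eyes (edgeR, adjusted p = 1.43e-05 and 8.86e-07). Between RVO and control eyes it was 0.30 ± 0.07 and missed the threshold (edgeR, adjusted p = 0.0158, 95% confidence interval 0.15 to 0.45).

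Of 10 genes whose products take part in membrane repair with annexins, 6 rose in RVO and 6 in control eyes compared to untreated eyes (27.4% and 27.2% of all tested genes did), and none fell. Capn2 was the 1 of the 10 that passed the test between RVO and control eyes, where it was higher in RVO eyes (2.70% of all tested genes were). In that comparison Trim72 and Capn1 lay below all control samples, with log2 fold changes of -0.75 and -0.49 that missed the threshold (edgeR, adjusted p = 0.0545 and 0.045, 95% confidence intervals -1.35 to -0.16 and -0.86 to -0.13). Of the 50-base stretches of Capn2 and Trim72, 23.5% and 23.8% are shared with genes on the opposite strand, so their counts are less certain. Myof encodes myoferlin and was at 12.9, 11.1 and 9.21 CPM in untreated, 41.7, 63.2 and 46.2 CPM in control and 75.6, 84.6 and 87.2 CPM in RVO eyes. Relative to untreated eyes it rose by 2.93 in RVO and by 2.21 in control eyes on the log2 scale (edgeR, adjusted p = 3.03e-06 and 3.12e-07), and the value of 0.71 between RVO and control eyes missed the threshold (edgeR, adjusted p = 0.015, 95% confidence interval 0.36 to 1.07). Ahnak, a giant scaffold that binds annexin A2 with S100A10, rose by 1.77 and 1.22 against untreated eyes (edgeR, adjusted p = 5.36e-06 and 1.23e-06) and was at 0.54 between RVO and control eyes (edgeR, adjusted p = 0.0136, 95% confidence interval 0.28 to 0.79). Dysf, the gene of dysferlin, differed from these in its order. It was at 1.54, 1.56 and 1.57 CPM in untreated eyes, 3.62, 4.40 and 3.98 CPM in control eyes and 3.35, 3.95 and 3.25 CPM in RVO eyes. The control and RVO samples overlapped, with a log2 fold change of -0.18 between them (edgeR, adjusted p = 0.406, 95% confidence interval -0.56 to 0.19), while Dysf rose 2.30-fold in RVO and 2.58-fold in control eyes against untreated eyes (edgeR, adjusted p = 0.000937 and 4.9e-05).

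Anxa7 (chr14:20455260-20480133, - strand), the gene of the membrane-fusing protein once called synexin, was the 1 annexin that did not pass the test in control compared to untreated eyes. Its level was 75.8, 66.6 and 59.5 CPM in untreated, 73.7, 89.7 and 79.9 CPM in control and 134, 113 and 127 CPM in RVO eyes. The untreated and control samples overlapped, since untreated replicate 1 was above control replicate 1, whereas all RVO samples were higher. The log2 fold change was 0.29 ± 0.09 in control compared to untreated eyes and missed the threshold (edgeR, adjusted p = 0.0131, 95% confidence interval 0.09 to 0.49). It was 0.92 ± 0.11 in RVO compared to untreated and 0.62 ± 0.10 in RVO compared to control eyes (edgeR, adjusted p = 0.00018 and 0.00989). The missing call in control eyes was not stable. It held in 8 of 15 other settings, and Anxa7 was called in the rest (edgeR or DESeq2, adjusted p = 9.92e-06 to 0.34).

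Anxa11 (chr14:25842156-25886804, + strand), whose product tethers RNA granules to lysosomes, was the lowest of the 8. It was at 1.36, 2.19 and 2.14 CPM in untreated, 4.84, 4.24 and 3.68 CPM in control and 6.02, 5.86 and 7.43 CPM in RVO eyes, which in untreated eyes came to 15 to 30 counts. The groups did not overlap, and the log2 fold change was 1.78 ± 0.22 in RVO and 1.16 ± 0.21 in control eyes compared to untreated eyes (edgeR, adjusted p = 0.00025 and 0.000396). Between RVO and control eyes it was 0.60 ± 0.17 and missed the threshold (edgeR, adjusted p = 0.0328, 95% confidence interval 0.20 to 1.00). Of its 50-base stretches, 16.2% also occur in transcripts of Gm2260, Gm2274 or the antisense gene Anxa11os. Pdcd6, whose small calcium-binding product binds annexins A7 and A11, was at 0.30 in RVO compared to untreated eyes, -0.01 in control compared to untreated eyes and 0.30 in RVO compared to control eyes on the log2 scale, and none of these passed the test (edgeR, adjusted p = 0.0122, 0.943 and 0.0271, 95% confidence intervals 0.11 to 0.50, -0.17 to 0.16 and 0.11 to 0.49). Sri, the gene of sorcin, was at 0.41, 0.23 and 0.18 (edgeR, adjusted p = 0.0102, 0.0405 and 0.258, 95% confidence intervals 0.16 to 0.67, 0.03 to 0.42 and -0.09 to 0.45).

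S100a6 showed the largest difference from untreated eyes among the S100 partners, and its product binds annexins including A2, A6 and A11. It was at 5.99, 4.77 and 4.64 CPM in untreated, 69.0, 99.5 and 86.4 CPM in control and 84.0, 122 and 108 CPM in RVO eyes. Relative to untreated eyes it rose by 4.39 in RVO and by 4.08 in control eyes on the log2 scale (edgeR, adjusted p = 2.27e-06 and 5.76e-09), but the control and RVO samples overlapped, with a value of 0.30 (edgeR, adjusted p = 0.196, 95% confidence interval -0.09 to 0.69). S100a4, another binder of annexin A2, shares 47.4% of its 50-base stretches with the overlapping gene Gm42674, so its counts are less certain. It was low throughout, at 0.45, 0.86 and 0.79 CPM in untreated, 3.66, 2.58 and 2.97 CPM in control and 1.37, 5.56 and 2.20 CPM in RVO eyes. It rose in control eyes by 2.12 (edgeR, adjusted p = 2.59e-05). The value of 2.10 in RVO compared to untreated eyes missed the threshold at a wide spread of the RVO samples (edgeR, adjusted p = 0.0142, 95% confidence interval 0.72 to 3.49), and that between RVO and control eyes was -0.03 (edgeR, adjusted p = 0.965, 95% confidence interval -1.14 to 1.08).

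Anxa3 (chr5:96793339-96845966, + strand), an annexin of neutrophils and other phagocytes, was at 3.27, 2.81 and 3.93 CPM in untreated, 6.01, 7.17 and 5.40 CPM in control and 10.9, 13.4 and 12.0 CPM in RVO eyes. Each group lay wholly above the one before. The log2 fold change of Anxa3 was 1.88 ± 0.17 in RVO and 0.90 ± 0.18 in control eyes compared to untreated eyes (edgeR, adjusted p = 5.84e-05 and 0.000709) and 0.96 ± 0.15 in RVO compared to control eyes (edgeR, adjusted p = 0.00989). As with Anxa1, the highest sample was RVO replicate 2. Anxa4 (chr6:86736840-86793584, - strand), which acts in membrane traffic of epithelia, was at 8.26, 5.86 and 5.79 CPM in untreated, 11.2, 12.2 and 10.3 CPM in control and 20.2, 18.8 and 17.4 CPM in RVO eyes. Its groups did not overlap either, with log2 fold changes of 1.54 ± 0.16, 0.79 ± 0.15 and 0.75 ± 0.11 for the comparisons in the same order (edgeR, adjusted p = 0.00011, 0.000413 and 0.00928).

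**Figure D3:**
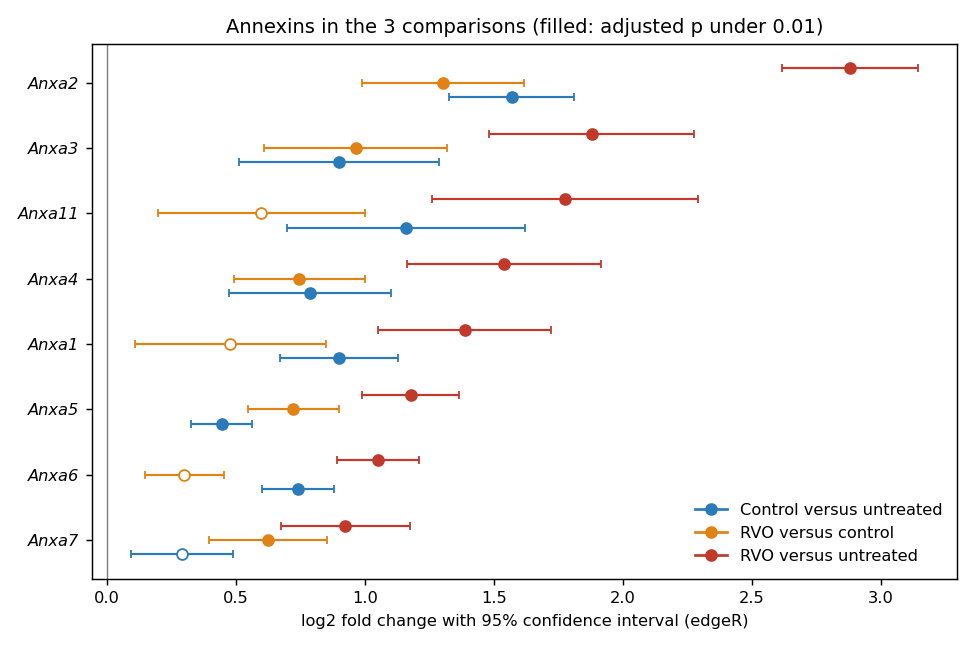
Log2 fold change of each annexin in the 3 comparisons with its 95% confidence interval from edgeR, with filled points where the adjusted p was under 0.01. All intervals lie above 0, and the interval of Anxa2 in RVO compared to untreated eyes (2.62 to 3.14) lies above those of the other 7 annexins.

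The comparison of RVO with control eyes asks how laser on the veins differs from the same laser scheme between the vessels. Occlusion and injury of the vessel wall cannot be told apart in it. All 8 annexins were higher in every RVO sample than in every control sample, as were 26.7% of all tested genes. Their log2 fold changes lay between 0.30 and 1.30. The calls were close to the threshold, and at an adjusted p under 0.05 in edgeR 7 of the 8 were counted, all but Anxa1, when 17.5% of all tested genes were counted as higher. No annexin was called when RVO replicate 1, RVO replicate 3, control replicate 1, control replicate 2 or control replicate 3 was left out, settings in which edgeR called at most 29 genes in the whole table, whereas at an unadjusted p under 0.05 it still counted 7 or 8 annexins and 6100 to 6916 genes. Without RVO replicate 2, 6 annexins were called. The share of all genes called in that setting is not given here, so this count has no background. With only the spread among 3 pools to judge by, whether an annexin passed the threshold thus depended on single samples, while all 8 fold changes stayed above 0 in each of these settings. Since every RVO sample was above every control sample, leaving a sample out could hardly have turned a fold change.

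Against untreated eyes the calls were firmer. In RVO eyes all 8 annexins lay above all untreated samples (35.9% of tested genes did so), and in control eyes 7 of them (34.6%). The removal of trends with GC content and length lowered these fold changes. In control compared to untreated eyes Anxa5 was then at 0.03, Anxa6 at 0.18 and Anxa11 at 0.55, which no longer passed the test (edgeR, adjusted p = 0.693, 0.0269 and 0.0335). In RVO compared to untreated eyes Anxa5 was at 0.60, Anxa6 at 0.37 and Anxa11 at 1.09, which still passed it (edgeR, adjusted p = 4e-04, 0.00325 and 0.00223).

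**Figure D4:**
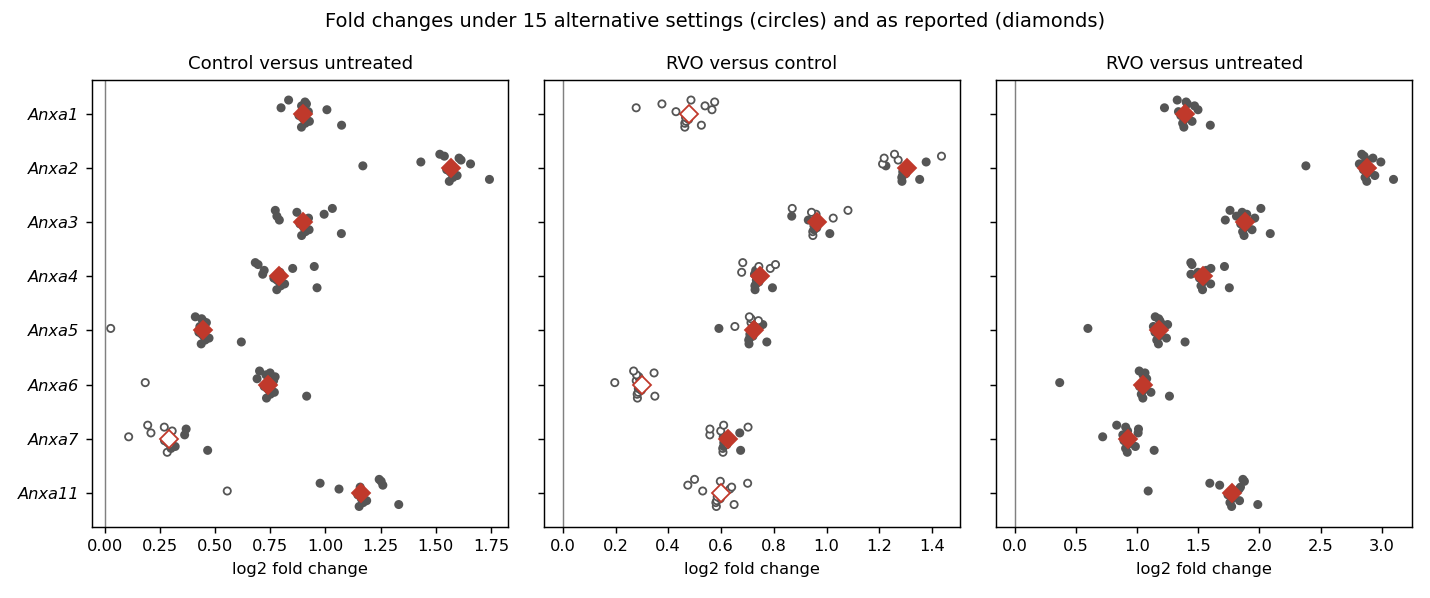
Log2 fold change of each annexin as reported (diamonds) and under 15 other settings (circles) in the 3 comparisons, filled where the adjusted p was under 0.01. No value falls below 0, and the open circles gather in the comparison of RVO with control eyes.

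Levels of different genes were compared per kilobase of exon. In untreated eyes the order was Anxa5 (31.1 CPM per kilobase), Anxa6 (16.04), Anxa7 (11.2), Anxa1 (7.82), Anxa2 (5.08), Anxa4 (1.43), Anxa3 (0.916) and Anxa11 (0.459), and no neighbours in it overlapped between samples. In control eyes Anxa5 (41.8) and Anxa6 (26.5) were followed by Anxa2 (14.9), Anxa1 (14.4) and Anxa7 (13.5), each of which overlapped with its neighbour. In RVO eyes Anxa2 (36.6) came next to Anxa5 (68.9) and overlapped with Anxa6 (32.5), and Anxa7 (20.8) and Anxa1 (20.02) overlapped with each other. Anxa4, Anxa3 and Anxa11 remained the lowest in every group, in this order. The 8 annexins summed to 77.1, 74.7 and 70.6 CPM per kilobase in untreated eyes, 112, 124 and 113 in control eyes and 196, 180.5 and 187 in RVO eyes. Of this sum, Anxa2 made up 6.85% ± 0.21 in untreated, 12.7% ± 1.2 in control and 19.4% ± 1.6 in RVO eyes (SD, n = 3). The share of Anxa5 was 42.0% ± 0.84, 36.1% ± 2.6 and 36.7% ± 1.3, and that of Anxa7 was 15.1% ± 1.2, 11.6% ± 0.56 and 11.1% ± 0.52. The share of Anxa6 was 21.7% ± 0.66 and 22.8% ± 0.29 in untreated and control eyes and 17.3% ± 0.50 in RVO eyes.

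**Figure D5:**
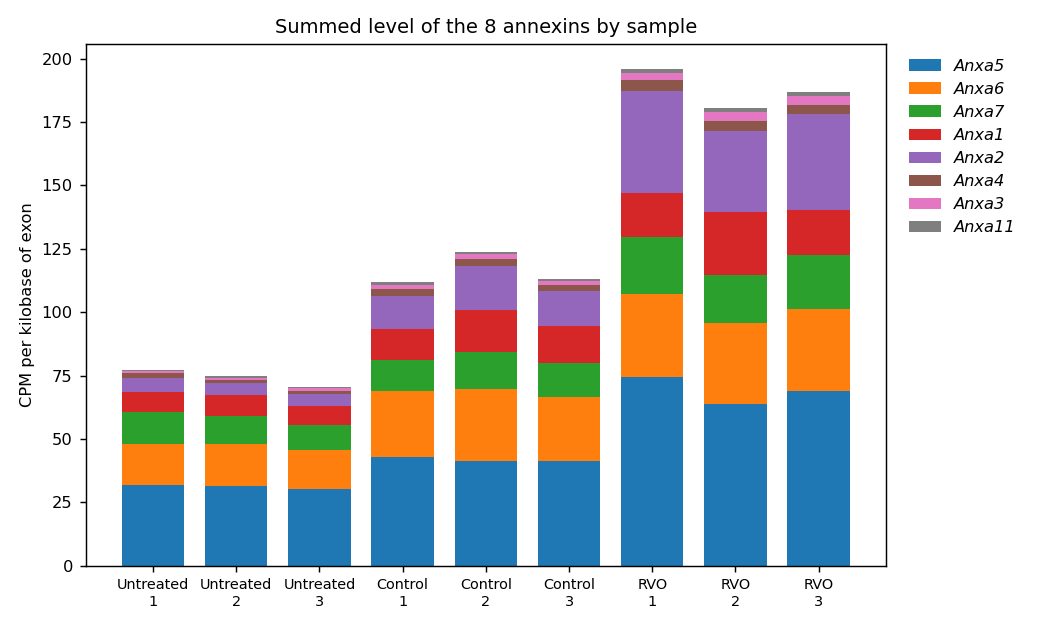
Level of the 8 annexins per kilobase of exon, stacked for each of the 9 samples. The total is between 70.6 and 77.1 in untreated and between 180.5 and 196 in RVO eyes, and the band of Anxa2 widens from 6.85% to 19.4% of it.

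Within groups the annexins did not all follow the same samples. Among RVO samples, replicate 1 was the highest for 5 annexins and replicate 2 the lowest for 5, but replicate 2 was the highest for Anxa1 and Anxa3. Control replicate 2 was the highest control sample for 6 annexins, and untreated replicate 3 the lowest untreated sample for 6. The remaining annexins were rare. Anxa9 was at 1.18, 0.70 and 0.86 CPM in untreated, 1.13, 1.36 and 1.09 CPM in control and 2.10, 2.12 and 1.93 CPM in RVO eyes. It rose in RVO compared to untreated eyes by a log2 fold change of 1.21 (edgeR, adjusted p = 0.00328), while 0.41 in control compared to untreated eyes and 0.79 in RVO compared to control eyes missed the threshold (edgeR, adjusted p = 0.23 and 0.0192, 95% confidence intervals -0.22 to 1.04 and 0.35 to 1.23). Anxa8 was between 0.10 and 0.72 CPM in all samples and differed between RVO and control eyes by 0.14 (edgeR, adjusted p = 0.865, 95% confidence interval -1.18 to 1.45). Anxa10 had 0 counts in all samples and Anxa13 at most 2.

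For each annexin, the genes with the most similar pattern over the 9 samples were sought among 11986 genes with a mean of at least 5 CPM, by Pearson's correlation of log2 CPM. Anxa2 was closest to Arhgef2, P2ry2 and Tubb4b (r = 0.999, 0.998 and 0.998), and Anxa6 to Sec22c, Lin7b and Slc25a37 (r = 0.998, 0.998 and 0.998). Anxa5 was closest to Cd82, Smox and Rras2 (r = 0.997, 0.997 and 0.994), Anxa7 to Eef1a1, Ppib and Yap1 (r = 0.997, 0.991 and 0.991), and Anxa3 to Atp6v0e, Acot9 and Cdkn2c (r = 0.994, 0.992 and 0.990). Anxa11 was closest to Med29, Fkbp10 and Cdc42ep1 (r = 0.993, 0.989 and 0.988), Anxa4 to Fkbp9, Suclg2 and Igf2r (r = 0.990, 0.988 and 0.988), and Anxa1 to Csrp1, Mboat7 and Chrnb4 (r = 0.983, 0.982 and 0.982). No annexin was among the nearest 3 genes of another. These values describe the likeness of 9 samples that fall into 3 groups, so they mainly follow the group levels, and no test was made of them.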

How the data were processed

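RNAseq libraries of poly-A RNA (stranded kit) from 9 pools of 6 retinas were mapped by the authors with STAR 2.5.2b to GRCm38 with the Gencode vM11 annotation and counted per gene with featureCounts of Subread 1.5.1, per the paper and the submitters' processing notes. The authors deposited whole-number counts by gene symbol without normalization. The handling of reads that match several genes and the use of strand are not given in the sources used here, so reads of overlapping or near-identical genes may be counted with either. The table listed 48679 names, of which 92 were spike-in controls with 0 counts. The number of columns not used was 0.

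Samples were grouped by their labels. The tests used edgeR 4.0.16 (R 4.3.3) in a separate fit per pair of groups, with filterByExpr, TMM factors, the quasi-likelihood F test and Benjamini-Hochberg adjustment over all tested genes, with genes under 0.01 called, the threshold of the study. SE was taken from the F statistic and the 95% confidence interval from its degrees of freedom. CPM used TMM factors of all 9 samples (0.890 to 0.918 in untreated, 1.02 to 1.05 in control and 1.05 to 1.08 in RVO eyes). Exon lengths and coordinates came from GENCODE vM21, also on GRCm38. For a group with at most 3 counts in every sample, a lower bound of the fold change was computed against a floor of 3 counts per sample. This covers counting error only. For Fpr1 the ratio of summed counts with its Poisson interval is given instead. Replicates were separate pools whose counts differed by more than sampling noise (chi-square per degree of freedom 3.15 to 54.1), and p-values measure the spread between pools. Untreated libraries were shallower, so low genes were measured less precisely in them.

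The 8 annexins and the lists of partners and cell type markers were chosen with earlier results of these data known. Named genes were all annexins, the direct partners S100a10, S100a11, S100a6, S100a4, Fpr1, Fpr2, Plat, Plgrkt, Plg, Ahnak, Dysf, Myof, Pdcd6 and Sri, and for each annexin the 3 genes of highest Pearson correlation of log2 CPM (prior count 2). Other list members were counted, and some of them were named after their values were seen. These were Capn1, Capn2, Trim72, Axl, Glul, Kcnj10, Rlbp1, Pdgfra, Hba-a1, Hba-a2, Alas2, Hbb-bs, Hbb-bt, Nrl, Cx3cr1 and Sall1. Alternatives were other scalings (DESeq2 size factors, upper quartile, library size), other low-count filters, DESeq2 1.42.0, a fit of all samples, a threshold of 0.05, the replicate number as a block, removal of GC content and length trends, each sample left out in turn, and a prior count of 0.5. The procedure was tested on simulated counts.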

Additional observations from a re-analysis of the deposited data

How the results depend on the processing

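In RVO compared to untreated eyes all 8 annexins were called under every alternative, including each sample left out (8 to 8). In control compared to untreated eyes, 7 to 8 were called with a sample left out and 4 after removal of GC content and length trends, which also removes any real difference that follows them. In RVO compared to control eyes 5 became 3 with DESeq2 size factors, with upper quartile factors and with a minimum of 1 CPM in at least 3 samples, 6 with DESeq2 or a fit of all 9 samples, and 0 to 6 with a sample left out. Most of these counts stand here without the number of all genes called in the same setting. All 360 fold changes under the alternatives kept their sign. The alternatives used the same counts, and most of the groups compared did not overlap. A turned sign was thus unlikely from the start, and this is no separate support of the direction. Of 120 fold changes in each comparison, 120, 110 and 81 kept their side of the threshold (RVO and untreated, control and untreated, RVO and control eyes), 0, 3 and 36 lost the call, and 0, 7 and 3 gained it. The 7 gained calls between control and untreated eyes were all of Anxa7. Scaling by library size alone moved the median of all genes by 0.21, 0.17 and 0.05 on the log2 scale, and the summed annexin level from 223 to 202 CPM in untreated and from 574 to 616 CPM in RVO eyes. Whether RVO and control pools share mice was not stated, so the unpaired tests may treat related pools as independent. Replicate numbers did not show such a pairing: same-numbered RVO and control samples deviated from their group means with correlations of -0.128, -0.145 and 0.076, and the other comparisons were between -0.0524 and 0.0806. With the replicate block, 8, 8 and 0 annexins were called in the 3 comparisons, and between RVO and control eyes edgeR called 0 of all genes while 7227 genes, with all 8 annexins among them, had an unadjusted p under 0.05. With a prior count of 0.5, Rras2 left the 3 genes most like Anxa5. Anxa11 had 15 to 30 counts in untreated samples, Fpr1 had 1 in each of them and Fpr2 had 0.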
